A study of Mus musculus with 6 samples.

Results

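The genes described here are 10 transcription factors, chosen by symbol: the ETS factors Erg, Fli1 and Ets1, the SOXF factors Sox7, Sox17 and Sox18, the sinusoidal factors Gata4 and Maf, and the flow-induced factors Klf2 and Klf4. All 10 members were found once each among the 21956 genes of the deposited table, and all 10 passed the filter on low counts that left 13197 genes for testing. ETS and SOXF proteins hold endothelial cells in their identity by switching on genes such as those of the vascular junctions, and the members within each family partly stand in for each other. GATA4 directs the sinusoidal endothelium of the liver towards its open, scavenging form, and c-Maf, the product of Maf, is another regulator of that form. KLF2 and KLF4 are induced by the drag of flowing blood through MEK5, ERK5 and MEF2 proteins, and they favour a quiet, anti-thrombotic and anti-inflammatory vessel wall.

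Polyadenylated RNA was sequenced from whole livers of 6 mice in 2 groups. The 3 knockout mice carried floxed Sting alleles and Cre under the endothelial Cdh5 promoter (Stingfl/fl Cdh5-Cre+). This design is meant to delete Sting1, the adaptor that relays sensing of cytosolic DNA, in endothelial cells. Which cells lost Sting1 cannot be read from whole-liver RNA. The 3 control mice were littermates with the same floxed alleles and no Cre (Stingfl/fl Cdh5-Cre-). Mice of both groups ate chow until 8 weeks of age and were then kept for 10 weeks on CDAHFD, a high-fat feed that lacks choline and gives L-amino acids in place of protein, which produces steatohepatitis. No mice without the floxed alleles or on chow alone were part of the comparison, and Cre was present in the knockout group only, so that Cre and the deletion cannot be told apart. The replicates are described as separate animals.

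The libraries held 16704663 to 21025466 counts. The labels name sinusoidal endothelial cells as the cell type, but Alb, the hepatocyte albumin gene, took 6.91% to 10.9% of the counts, and the protocol names liver tissue as the source of the RNA. Control replicate 2 stood apart, with the lowest Alb share and a scaling factor of 1.26 against 0.922 to 1.01 in the other libraries. Sting1 itself stood at 5.64, 6.54 and 4.40 CPM (read counts scaled to the size of each library after TMM adjustment) in knockout replicates 1 to 3 and at 12.1, 17.4 and 11.0 CPM in control replicates 1 to 3, with no overlap. Its log2 fold change of -1.29 had a standard error of 0.23, and its adjusted p was 0.357 in edgeR's quasi-likelihood test and 0.00154 in DESeq2, which called it.

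The factors most worth seeing at the DNA level were Klf2 and Klf4, because they stood lower together in the knockout livers, and Erg is set beside them as the ETS factor with a matched promoter. The stretches below are bases before the gene's RefSeq start on GRCm38.p6, taken from RefSeq, 5′ to 3′ on the gene's strand, which is plus for Klf2 and minus for Klf4 and Erg. Promoters were matched for these 3 of the 10 members. The Klf2 stretch is cut to 221 bases and ends just before the GENCODE start at 72319033, upstream of the RefSeq start at 72319062. Capitals mark a match to the MEF2 motif.
Klf2, chr8:72318812-72319032: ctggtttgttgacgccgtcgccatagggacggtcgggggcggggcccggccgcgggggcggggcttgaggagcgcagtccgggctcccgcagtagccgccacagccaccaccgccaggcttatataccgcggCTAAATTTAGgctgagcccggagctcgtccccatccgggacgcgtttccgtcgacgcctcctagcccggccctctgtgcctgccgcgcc
Klf4, chr4:55532476-55532725: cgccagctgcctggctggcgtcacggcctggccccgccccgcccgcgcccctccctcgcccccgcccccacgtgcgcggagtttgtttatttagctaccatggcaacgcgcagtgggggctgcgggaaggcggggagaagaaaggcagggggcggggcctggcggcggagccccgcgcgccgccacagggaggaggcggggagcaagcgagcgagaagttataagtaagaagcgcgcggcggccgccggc
Erg, chr16:95586594-95586843: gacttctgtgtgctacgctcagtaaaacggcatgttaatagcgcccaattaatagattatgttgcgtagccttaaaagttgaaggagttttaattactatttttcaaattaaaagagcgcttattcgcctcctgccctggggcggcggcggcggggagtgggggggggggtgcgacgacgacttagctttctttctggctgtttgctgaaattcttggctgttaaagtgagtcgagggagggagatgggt

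The Klf2 stretch held 1 match to the MEF2 motif, at bases 109 to 118 before the RefSeq start, and the stretches of Klf4 and Erg shown held none. Over the 250 bases before the start, searched on both strands here and for the motifs that follow, 2.92% of the 32851 promoters in the RefSeq table had such a match. The Klf2 window held 2 GC boxes (GGGCGG) and the Klf4 window 4, of which 2 share a base, and 32.7% of all promoters held at least 1. The sequence CACCC, a core of sites for KLF proteins, occurred once in the Klf2 and Erg windows and in 52.0% of all promoters. The RefSeq table gave Erg 3 starts, and the window before another of them held 1 match to the MEF2 motif. These are matches of letters and not measured binding sites.

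The levels of the 10 genes were compared in TPM, which is scaled to transcript length. In control livers Maf was highest at 22.7 ± 1.49 TPM (SD, n = 3) and Sox7 lowest at 1.99 ± 0.38 TPM. Between them came Ets1 (21.1 TPM), Klf2 (14.8 TPM), Gata4 (11.3 TPM), Sox18 (7.54 TPM), Fli1 (6.09 TPM), Erg (5.17 TPM), Klf4 (4.04 TPM) and Sox17 (2.57 TPM). All 9 pairs of neighbours in that order had overlapping libraries. In knockout livers Klf2 ranked below Gata4 (13.3 ± 1.47 TPM against 7.55 ± 2.28 TPM, n = 3, without overlap), and Klf4 ranked below Sox7 at 1.63 ± 0.95 TPM, with overlapping libraries. In bulk tissue, fewer cells of a type and less RNA per cell cannot be told apart.

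None of the 10 factors passed the test between the groups. Of all 13197 genes tested, 0 (0%) had an adjusted p under 0.05 in edgeR's quasi-likelihood test with Benjamini-Hochberg adjustment, against 1419 at an unadjusted p under 0.05. DESeq2 called 119 genes, Sting1 among them and none of the members. At an unadjusted p under 0.05, 1 of the 10 members, Klf2, was lower in the knockout, where 7.00% of all genes were lower at that level, and 0 were higher, where 3.75% of all genes were. Libraries of the groups did not overlap in CPM for 1 lower member, Klf2, against 9.14% of all genes, and for 1 higher member, Erg, against 7.25%. Shares of this size lie near those of all genes. The median log2 fold change was -0.08 over the 10 members and 0.01 over all genes tested.

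**Figure D1:**
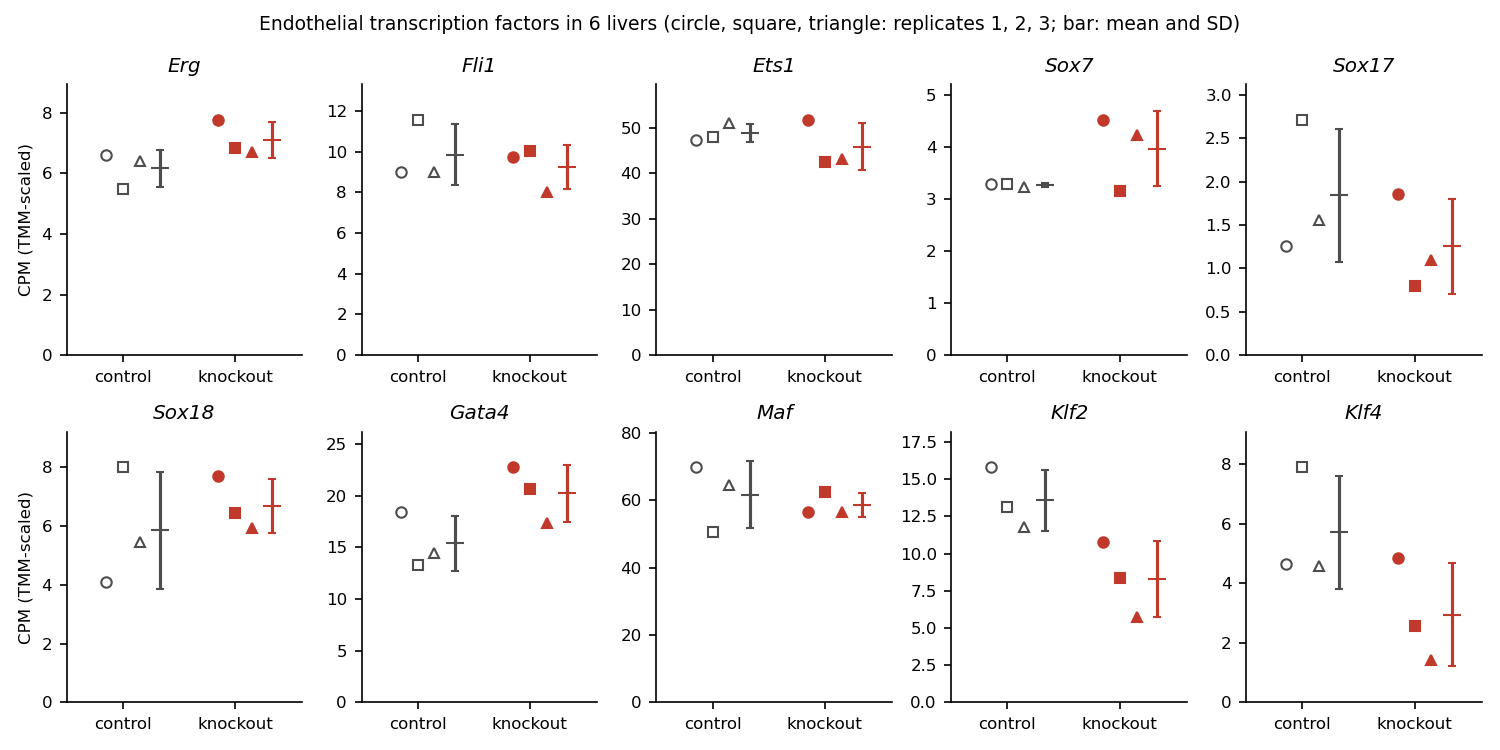
TMM-scaled CPM of the 10 factors in each liver, with control libraries as open and knockout libraries as filled symbols, replicates 1, 2 and 3 as circles, squares and triangles, and bars for the mean and SD of 3 libraries. The highest knockout library of Klf2 lies at 10.8 CPM and the lowest control library at 11.8 CPM, and all other factors except Erg overlap.

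Klf2 and Klf4 had the lowest log2 fold changes of the members. Klf2 (ENSMUSG00000055148, GRCm38 chromosome 8, 72319033 to 72321656, plus strand) stood at 15.8, 13.1 and 11.8 CPM in control replicates 1 to 3 and at 10.8, 8.38 and 5.72 CPM in knockout replicates 1 to 3. Every knockout library was below every control library, with the narrowest gap between knockout replicate 1 and control replicate 3. The means were 13.6 ± 2.06 CPM in control livers (SD, n = 3) and 8.30 ± 2.54 CPM in knockout livers, so that the fitted knockout level was 61.2% of the control level. The difference on the log2 scale was -0.71 (standard error 0.24), with an unadjusted p of 0.0174 and an adjusted p of 0.385 in edgeR's test. It ranked 594 among all genes by p. T cells express Klf2 as well. Of the markers of T and natural killer cells 14 of 18 were above 0 and none was at 0 counts throughout, with sums of 37.2 to 62.4 TPM in control and 40.5 to 66.8 TPM in knockout livers, and their part in the Klf2 values was not tested. The two-sided exact permutation p on log2(CPM + 1) was 0.1, the smallest that 3 against 3 allows.

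Klf4 (ENSMUSG00000003032, chromosome 4, 55527143 to 55532466, minus strand) is expressed in vessel walls and also in epithelia and monocytes. It stood at 4.65, 7.91 and 4.59 CPM in control replicates 1 to 3 and at 4.84, 2.58 and 1.43 CPM in knockout replicates 1 to 3. Knockout replicate 1 lay among the controls, whereas the other knockout libraries lay below all of them. The log2 fold change of -0.95 had a standard error of 0.43, an unadjusted p of 0.0566 and an adjusted p of 0.477 in edgeR's test. Without knockout replicate 1 it was -1.51, without control replicate 2 it was -0.64 and without knockout replicate 3 it was -0.62. Of the 11 tested monocyte and neutrophil markers 8 were above 0 (median 0.31), with sums of 1399 to 2013 TPM in control and 1313 to 2013 TPM in knockout livers and none at 0 counts throughout, and their part in the Klf4 values was not tested. The same holds for the biliary epithelium, whose markers are given below with Sox17. In both KLF genes knockout replicate 1 was the highest and knockout replicate 3 the lowest of the knockout libraries. Klf2 and Klf4 stayed below 0 in all 16 other fits, from -0.98 to -0.50 for Klf2 and from -1.51 to -0.62 for Klf4, and neither passed in any.

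**Figure D2:**
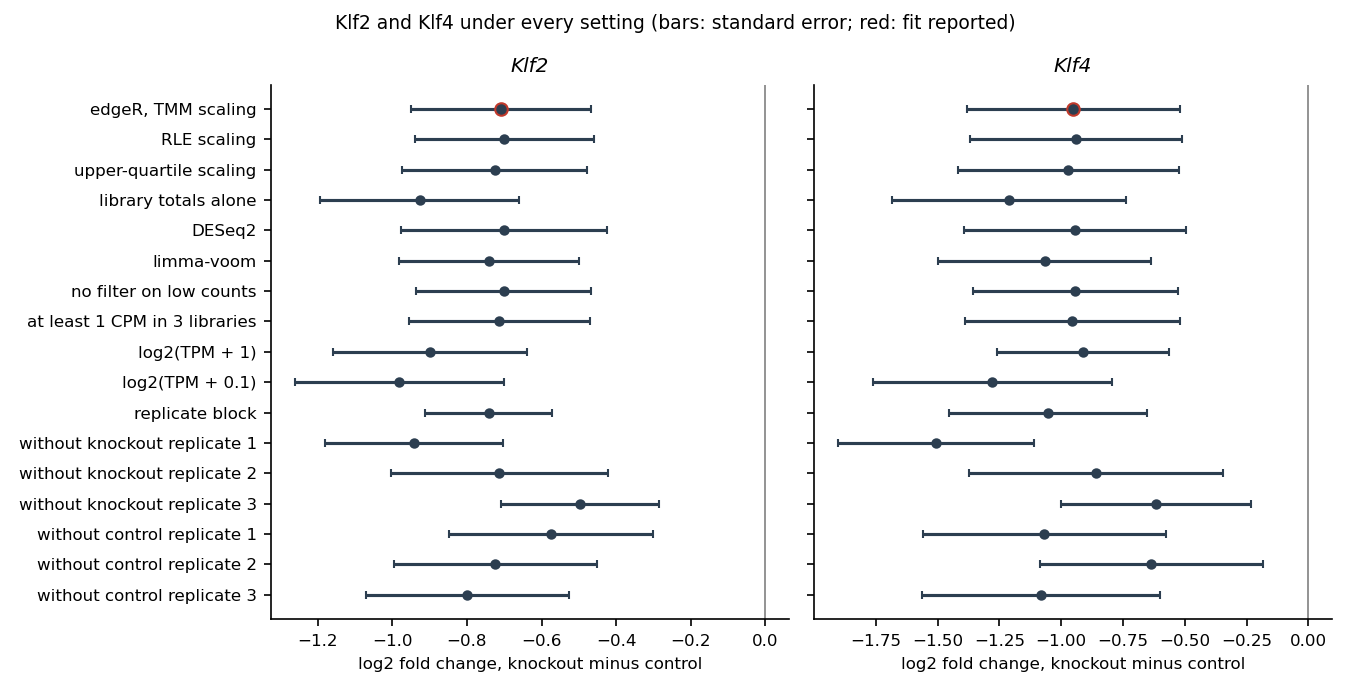
Log2 fold change of Klf2 and Klf4 (x axis, knockout minus control, bars for the standard error) in the fit reported and in 16 other fits (y axis). All points lie below 0, and those nearest to 0 leave out knockout replicate 3.

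The ETS factors had small differences between the groups with TMM scaling. Erg, the ETS factor most restricted to endothelium (ENSMUSG00000040732, chromosome 16, 95359169 to 95586593, minus strand), stood at 6.62, 5.48 and 6.39 CPM in control replicates 1 to 3 and at 7.76, 6.83 and 6.70 CPM in knockout replicates 1 to 3. The knockout libraries were all higher, by a narrow margin. For Erg the log2 fold change of 0.20 had a standard error of 0.18 and an adjusted p of 0.697 in edgeR's test, and it lay below 0 with library totals alone and in both TPM fits. In TPM the groups overlapped, with 4.71 ± 0.39 in knockout and 5.17 ± 0.73 in control livers (SD, n = 3).

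Fli1 and Ets1 lie side by side on chromosome 9, Fli1 at 32422204 to 32542861 on the minus and Ets1 at 32636221 to 32757820 on the plus strand, and both are also expressed in lymphocytes. Fli1 stood at 8.99, 11.6 and 9.03 CPM in control replicates 1 to 3 and at 9.73, 10.0 and 8.02 CPM in knockout replicates 1 to 3, with a log2 fold change of -0.09 (standard error 0.18). Its sign turned when control replicate 2 or knockout replicate 3 was left out, at 0.05 and 0.01. Ets1 stood at 47.3, 48.1 and 51.1 CPM in control and at 51.7, 42.5 and 43.1 CPM in knockout replicates 1 to 3, with a log2 fold change of -0.09 (standard error 0.13). For both genes the libraries of the groups overlapped, and with TMM scaling the differences were smaller than their standard errors. With library totals alone and in log2(TPM + 0.1) they exceeded them, at -0.31 (standard error 0.16) and -0.42 (0.22) for Ets1 and at -0.33 (0.25) and -0.33 (0.29) for Fli1. The median of all genes tested was itself -0.21 and -0.23 in those fits. The T and natural killer cell markers given above lay mostly above 0, and their part in the values of these factors was not tested.

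For each of the SOXF factors the libraries of the groups overlapped. Sox7 (chromosome 14, 63943673 to 63950732, plus strand) stood at 3.28, 3.29 and 3.22 CPM in control and at 4.52, 3.16 and 4.23 CPM in knockout replicates 1 to 3. Sox18 (chromosome 2, 181669836 to 181671640, minus strand), which acts in vessel and lymphatic development, stood at 4.09, 8.00 and 5.46 CPM in control and at 7.71, 6.43 and 5.94 CPM in knockout replicates 1 to 3. The log2 fold changes were 0.28 (standard error 0.24) and 0.19 (standard error 0.27), and the sign for Sox18 turned with library totals alone and in both TPM fits. Sox18 had 0.0015 without control replicate 1, 0.08 without knockout replicate 1 and 0.49 without control replicate 2, and Sox7 had 0.18 without knockout replicate 1 and 0.43 without knockout replicate 2. Neither difference was clear of the spread between replicates, and control replicate 1 held the lowest and control replicate 2 the highest Sox18 value of all libraries.

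Sox17, an arterial and also biliary factor (chromosome 1, 4490931 to 4497354, minus strand), rested on 14 to 57 counts a library. It stood at 1.26, 2.71 and 1.56 CPM in control replicates 1 to 3 and at 1.86, 0.80 and 1.10 CPM in knockout replicates 1 to 3. The log2 fold change was -0.55 (standard error 0.46, adjusted p 0.681 in edgeR's test). It was -0.16 without control replicate 2, -0.31 without knockout replicate 2 and -0.95 without knockout replicate 1. In TPM control replicate 2 read 5.23, the highest value of the 6 libraries, against 1.19 in control replicate 1. A count of Sox17 was worth 1.93 times as much TPM in control replicate 2 as in control replicate 1, against 1.25 times for the median gene, so that the units differ for this gene. The 12 cholangiocyte markers, of which all 12 were below 0 in the knockout and none was at 0 counts throughout, were also highest in control replicate 2, at 2297 summed TPM against 666 to 1109 in the other controls and 299 to 685 in the knockout livers. The part of biliary cells in the Sox17 values was not tested.

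Of the sinusoidal factors, Gata4 was the member with the highest log2 fold change. Gata4 (chromosome 14, 63198922 to 63271692, minus strand) is also expressed in stellate cells and hepatocytes. It stood at 18.4, 13.3 and 14.5 CPM in control replicates 1 to 3 and at 22.8, 20.7 and 17.3 CPM in knockout replicates 1 to 3. The lowest knockout library overlapped the highest control library. For Gata4 the log2 fold change of 0.40 had a standard error of 0.18, an unadjusted p of 0.0526 and an adjusted p of 0.469 in edgeR's test. It stayed above 0 in all 16 other fits, from 0.19 with library totals alone to 0.55 without control replicate 1. Beside it, 9 of 12 hepatocyte markers were above 0 (median 0.40), and 11 of 14 stellate cell markers were below 0 (median -0.27), none of either list being at 0 counts throughout. Stellate markers summed to 1008 to 1572 TPM in control and 791 to 1086 TPM in knockout livers, and hepatocyte markers to 95662 to 125808 and 121688 to 137699 TPM. The part of these cells in the Gata4 values was not tested.

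Maf (ENSMUSG00000055435, chromosome 8, 115682942 to 115707794, minus strand), also expressed in macrophages and T cells, was the most abundant member. Its CPM were 69.9, 50.7 and 64.5 in control and 56.5, 62.6 and 56.5 in knockout replicates 1 to 3, so that the groups overlapped. The log2 fold change was -0.08 (standard error 0.15) with an adjusted p of 0.864 in edgeR's test, and 0.03 without control replicate 1. In TPM the knockout libraries read 18.0, 19.9 and 17.6 and the control libraries 24.2, 22.8 and 21.3, with no overlap. The share of all genes without overlap in TPM was not counted. In log2(TPM + 0.1) Maf had -0.30, beside a median of -0.23 over all genes. Of the Kupffer cell markers 13 of 13 were above 0 (median 0.63) and 1191 to 1986 summed TPM in control and 1482 to 1935 in knockout livers. Their part in the Maf values was not tested.

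The signs of Erg and Sox18 and the size of other differences depended on the scaling. The median log2 fold change of all genes tested was -0.21 with library totals alone and -0.23 in log2(TPM + 0.1), against 0.01 with TMM scaling. Klf2 (-0.93 and -0.98), Klf4 (-1.21 and -1.28) and Gata4 (0.19 and 0.25) kept their sign in those fits, and each lay beyond the median of all genes on its own side. In the same fits Maf had -0.27 and -0.30 and Sox7 0.06 and 0.02.

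**Figure D3:**
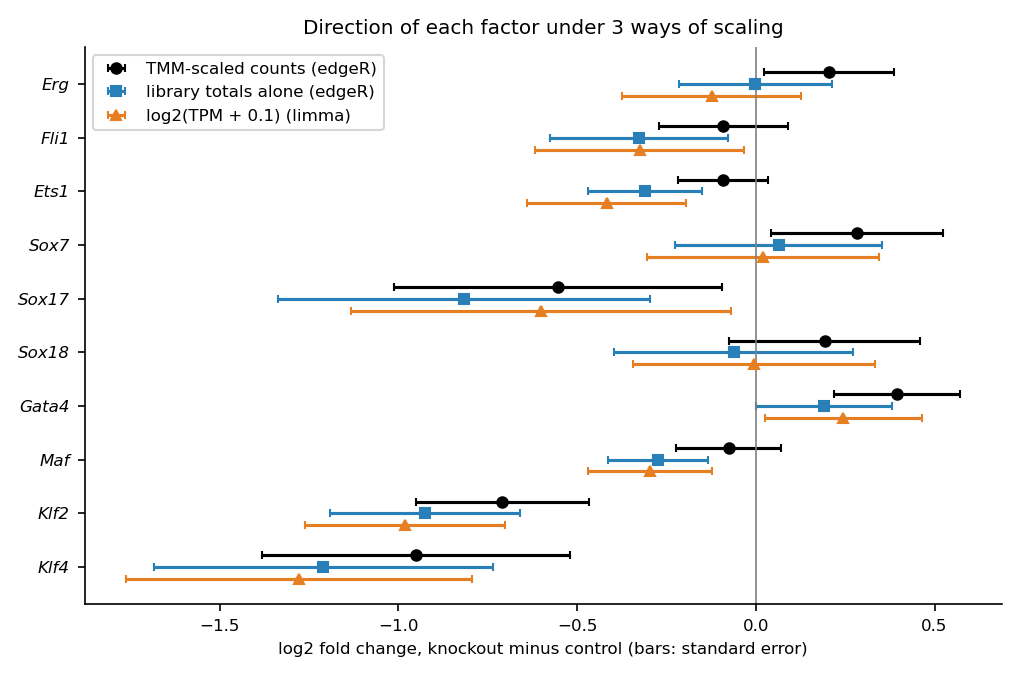
Log2 fold change (x axis, knockout minus control, bars for the standard error) of each factor (y axis) with TMM-scaled counts, with library totals alone and in log2(TPM + 0.1). Klf2 and Klf4 lie below 0 and Gata4 above 0 in all 3, whereas Erg and Sox18 change sides.

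A ratio within each library does not depend on scaling between libraries. Each factor was therefore also set against the summed TPM of 20 pan-endothelial markers such as Pecam1, Cdh5 and Tie1, which ranged from 347 to 421 TPM in control and from 344 to 400 TPM in knockout livers. In the scaled counts 16 of these 20 markers, and 9 of 13 tested sinusoidal markers such as Stab1, Stab2 and Lyve1, were above 0, with medians of 0.17 and 0.25. With library totals alone these medians were -0.05 and 0.03, and both lay below 0 in the TPM fits. Over all genes the median lay lower still in each of these fits. Klf2 amounted to 4.54%, 4.12% and 2.95% of that sum in control replicates 1 to 3 and to 2.44%, 2.24% and 1.31% in knockout replicates 1 to 3, without overlap. Klf4 amounted to 0.81%, 1.57% and 0.70% in control and to 0.67%, 0.42% and 0.20% in knockout replicates 1 to 3, again without overlap, though knockout replicate 1 lay close to control replicate 3. Ets1 did not overlap either, at 4.96%, 6.54% and 4.86% in control and 4.37%, 4.22% and 3.65% in knockout replicates 1 to 3. For Ets1 a count was worth 1.48 times as much TPM in control replicate 2 as in control replicate 1, against 1.25 times for the median gene. Most of the 20 markers are also listed below as ERG, FLI1 and ETS1 targets, so that the sum is not independent of those factors. The log2 differences were -0.98 for Klf2, -1.33 for Klf4 and -0.41 for Ets1. Each had a two-sided exact permutation p of 0.1, the smallest possible, and 0.333 after Benjamini-Hochberg adjustment over the 10 members. The other 7 factors overlapped between the groups in this ratio. The share of all genes without overlap in the ratio was not counted. In log2(TPM + 0.1) the median was -0.23 over all genes and -0.04 over the pan-endothelial markers, so that these markers lay above the middle of all genes. Without knockout replicate 3 the Klf4 difference was -0.87, and without control replicate 2 the Ets1 difference was -0.27. With counts in place of TPM, chosen after seeing the data, the differences were -0.94 for Klf2, -1.27 for Klf4 and -0.29 for Ets1.

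**Figure D4:**
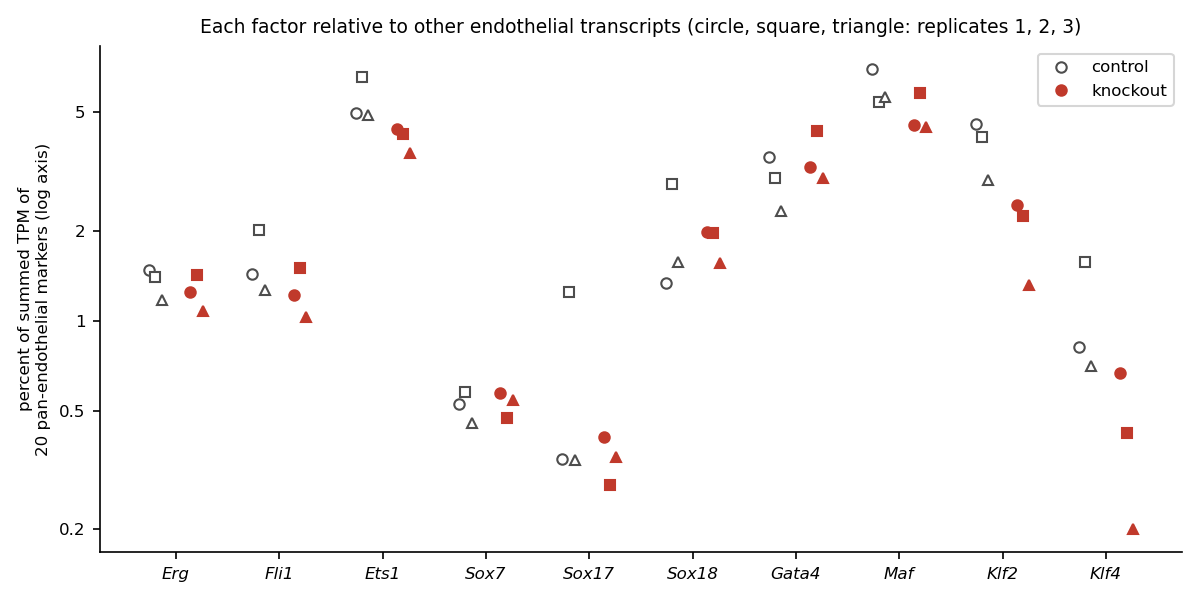
Each factor as a percentage of the summed TPM of 20 pan-endothelial markers in the same library (log axis), with open symbols for control, filled symbols for knockout, and circles, squares and triangles for replicates 1, 2 and 3. Klf2, Klf4 and Ets1 show no overlap between the groups, and the other 7 factors overlap. The share of all genes without overlap in this ratio was not counted.

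Among the genes that sense flow and induce the KLF factors, 10 of 20 were above 0 and 10 below, and the median was -0.002 on the log2 scale. At an unadjusted p under 0.05, 1 was lower and 0 were higher, against 7.00% and 3.75% of all genes, and none passed the adjusted test. The lower one was Mef2a, which encodes a MEF2 protein of the family that acts on the Klf2 promoter, at 71.4 ± 4.53 CPM in control livers (SD, n = 3) and 50.8 ± 12.1 CPM in knockout livers, without overlap. Its log2 fold change was -0.49 (standard error 0.18) with an adjusted p of 0.405 in edgeR's test. The part of Mef2a in the Klf2 values was not tested. Krit1, which restrains KLF2 induction in the cerebral cavernous malformation complex, had a log2 fold change of -0.44, and Gna11 and Flt4 had 0.30 and 0.25. None of these 4 passed.

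Targets that KLF2 and KLF4 induce did not stand lower as a group with TMM scaling. Tie1, Tek, Kdr and Aqp1 of this list are also pan-endothelial markers, and the part of cell composition in its values was not tested. Of 19 tested, 13 were above 0 and 6 below, with a median of 0.22, and 2 were lower and 1 higher at an unadjusted p under 0.05, where the shares of all genes were 7.00% and 3.75%. Nos3, the endothelial nitric oxide synthase, stood at 5.79 ± 2.05 CPM in control livers (SD, n = 3) and 6.75 ± 1.90 CPM in knockout livers. Thbd, the thrombin receptor thrombomodulin, stood at 21.0 ± 8.03 and 15.9 ± 2.28 CPM; both of these classical targets were named after their values were seen, and neither passed. Tmem100, an endothelial BMP9-induced membrane protein, stood at 1.52 ± 0.26 and 0.49 ± 0.32 CPM without overlap (log2 fold change -1.61, standard error 0.53). At such low levels the Tmem100 difference rests on few counts a library. Timp3, an inhibitor of matrix proteases, had a log2 fold change of -0.55. Ptgs1, which makes prostacyclin precursors, and the gap junction gene Gja4 had 0.38 and 0.48. No member of the list passed the adjusted test. The median lay below 0 with library totals alone and in both TPM fits, where the median of all genes lay lower still.

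Targets that these factors repress were divided as well. Of 11 tested, 4 were above 0 and 7 below, with a median of -0.03, and 2 were higher and 1 lower at an unadjusted p under 0.05 (3.75% and 7.00% of all genes). Cxcl1, a neutrophil chemokine, stood at 12.9 ± 1.41 CPM in control livers (SD, n = 3) and 22.2 ± 7.28 in knockout livers. Its libraries did not overlap in CPM but overlapped in TPM. Ackr1, the venular chemokine receptor, stood at 0.81 ± 0.23 and 1.97 ± 0.62 CPM, without overlap in CPM or TPM. The adhesion gene Sele had a log2 fold change of -0.65 with an adjusted p above 0.05. None passed the adjusted test, and the median was 0.07 without control replicate 2, -0.21 when knockout replicate 1 was left out and -0.18 when control replicate 1 was. With library totals alone it was -0.24, and in log2(TPM + 1) and log2(TPM + 0.1) it was -0.24 and -0.25. Over all genes the medians in these fits were -0.21, -0.20 and -0.23.

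ERG, FLI1 and ETS1 targets had a median log2 fold change of 0.15, with 15 of 20 above 0, 2 higher and 1 lower at an unadjusted p under 0.05, beside 3.75% and 7.00% over all genes. Clec14a, an endothelial membrane lectin, stood at 17.3 ± 4.38 CPM in control livers (SD, n = 3) and 25.2 ± 3.86 in knockout livers. The tight junction gene Cldn5 stood at 3.88 ± 0.35 and 5.72 ± 1.23 CPM. Both were without overlap in CPM, and both overlapped in TPM. Clec14a and Cldn5, like most genes of this list, are also among the pan-endothelial markers, so that the list repeats much of the marker result above. Cldn5 is listed again among the SOXF targets. The list median lay below 0 with library totals alone and in both TPM fits, where the median of all genes lay lower still. Frzb, a Wnt antagonist, had a log2 fold change of -0.41 and the receptor gene Tie1 0.33. SOXF targets were split evenly, with 8 of 16 above 0 and a median of -0.04, and 2 in each direction at an unadjusted p under 0.05, beside 7.00% lower and 3.75% higher over all genes. Efnb2, the arterial ephrin, stood at 7.62 ± 1.23 CPM in control and 3.89 ± 0.24 CPM in knockout livers without overlap, with a log2 fold change of -0.97 (standard error 0.21) and an adjusted p of 0.357 in edgeR's test. The SOXF median was 0.17 without control replicate 2, -0.26 with library totals alone, and -0.28 and -0.32 in log2(TPM + 1) and log2(TPM + 0.1). Over all genes the medians with library totals alone and in the TPM fits were -0.21, -0.20 and -0.23. The chemokine receptor gene Cxcr4 had -0.62 and the venous Efnb2 receptor gene Ephb4 0.35. None of these genes passed the adjusted test.

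Genes of the sinusoidal programme that GATA4 and c-Maf direct had a median log2 fold change of 0.19, with 14 of 22 above 0. This list contains all 14 sinusoidal markers used above, so that it is not a result separate from theirs. At an unadjusted p under 0.05, 5 were higher, all of them also sinusoidal markers, and 0 lower. Over all genes 3.75% were higher and 7.00% lower, and no gene of the list passed the adjusted test. Gpr182, a scavenging chemokine receptor, stood at 25.1 ± 3.31 CPM in control livers (SD, n = 3) and 38.3 ± 5.08 in knockout livers. Its libraries did not overlap in CPM but overlapped in TPM. The log2 fold change was 0.61 (standard error 0.15) with an adjusted p of 0.367 in edgeR's test. Clec4g, a sinusoidal lectin, the Fc receptor gene Fcgr2b and the nuclease gene Dnase1l3 had 0.56, 0.39 and 0.47. The median of the programme lay below 0 with library totals alone and in both TPM fits, where the median of all genes lay lower still.

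Genes of continuous capillaries, which GATA4 holds down in the sinusoid, had a median of -0.44, with 10 of 13 below 0. Of these 2 were lower at an unadjusted p under 0.05, Cdkn1a, the p53-induced cell cycle inhibitor (-1.28, standard error 0.28), and Lamb1, a basement membrane laminin (-0.53, standard error 0.16), and 0 were higher, against 7.00% and 3.75% of all genes. Cdkn1a is also expressed by hepatocytes, so that its level is not one of endothelium alone. The part of other cell types in the values of Lamb1 and the rest of the list was not tested. Cd34, a marker of capillarized sinusoids, had -0.58 (standard error 0.30) and Ly6a 0.39 (standard error 0.19), both with overlapping libraries. No gene of the list passed the adjusted test. The list summed to 288 to 642 TPM in control and 272 to 287 TPM in knockout livers, and the highest value was that of control replicate 2. Without that library the median was -0.06.

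**Figure D5:**
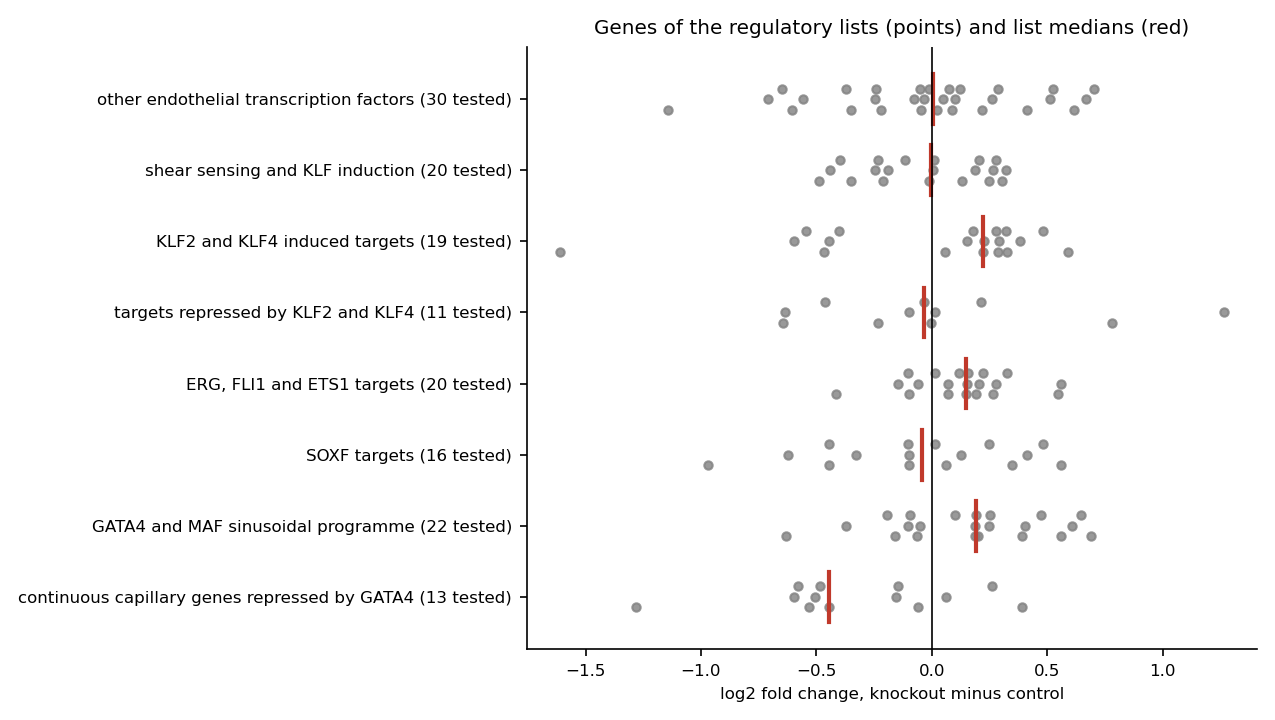
Log2 fold change (x axis, knockout minus control) of the tested genes in each regulatory list (y axis, number tested in parentheses), with red lines for the medians. The medians run from -0.44 for continuous capillary genes to 0.22 for targets induced by KLF2 and KLF4.

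Other endothelial transcription factors had 15 of 30 tested genes on each side of 0 and a median of 0.01. With library totals alone this median was -0.20, beside -0.21 over all genes. At an unadjusted p under 0.05, 3 were lower and 2 higher, against 7.00% and 3.75% of all genes tested. Hlx, a homeobox factor, stood at 9.25 ± 1.66 CPM in control livers (SD, n = 3) and 5.90 ± 0.08 CPM in knockout livers, and Sox4 had a log2 fold change of -1.14 with overlapping libraries. Id3, a target of BMP signalling, stood at 34.6 ± 9.80 and 53.2 ± 5.53 CPM. Epas1, which encodes the hypoxia factor HIF-2 alpha, stood at 121.5 ± 18.2 and 173.1 ± 19.3 CPM. Neither gene overlapped in CPM, but Id3 overlapped in TPM, where control replicate 2 held its highest value, 87.4. None passed the adjusted test.

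Within the KLF family, listed after the data were seen, 11 of 14 tested genes were below 0 and the median was -0.18. No member of the family other than Klf2 was under an unadjusted p of 0.05, where 7.00% of all genes were lower. Klf6 stood at 80.0 ± 3.85 CPM in control livers (SD, n = 3) and 54.4 ± 22.6 CPM in knockout livers with overlap, and Klf10 at 19.8 ± 8.53 and 31.5 ± 6.95 CPM, so that members lay on both sides. Klf2 and Klf4 are also early response genes, so that a list of such genes was added after seeing the data. Of its 18 genes 9 were above and 9 below 0, with a median of -0.0032, and Fos and Egr1 had log2 fold changes of 0.24 and -0.02. Nr4a1 (-1.01), Dusp1 (-0.55) and Fosl2 (-0.43) were lower and Junb (0.51) higher at an unadjusted p under 0.05. Over all genes 7.00% were lower and 3.75% higher at that level, and no gene of either list passed the adjusted test. The part of an early response in the KLF values was not tested.

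The genes whose profiles over the 6 libraries were nearest to those of the KLF factors were looked for among all genes tested. Likeness was the root mean square difference of log2 CPM, each gene centred on its own mean. Rem1 and Tasor2 were nearest to Klf2, at 0.07 and 0.08, where the spread of Klf2 itself was 0.47, and Zdhhc2 and Ggt7 were nearest to Klf4, at 0.14 each, where its own spread was 0.76. Epb41l2 was nearest to Fli1 at 0.01, where Fli1 had a spread of 0.16.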

How the data were processed

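Liver messenger RNA of 3 knockout and 3 control mice was read from 1 table of the series, which gives estimated counts per gene and TPM values, both deposited by the authors. Tools named in the submitters' processing notes, without their roles, are HISAT2 2.2.1, fastp 0.23.2, RSEM 1.3.3 and DESeq2 1.38.3; the builds named are mm10 and GRCm38. The sources used here give no annotation release. Libraries were strand-specific per the labels' protocols, but nothing says that counting used strand, which leaves overlapping genes uncertain.

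The deposited estimated counts were rounded and tested in edgeR 4.0.16 (quasi-likelihood, TMM, filterByExpr, robust fit, Benjamini-Hochberg at 0.05), with standard errors derived from the F statistics. Levels between genes use the deposited TPM. GENCODE M21 gave positions, and Slc9a3r2 was matched as Nherf2. Alternatives used DESeq2 1.42.0 and limma 3.58.1 (R 4.3.3), other scalings and filters, log2(TPM + 1), log2(TPM + 0.1), a replicate block and each library left out. The fits were tested on simulated data. Intervals of depth are not given, since the errors come from replicates.

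The members and lists were chosen with earlier results of these data known. Named genes are Sting1, the members, up to 4 genes with the smallest p of each regulatory list, up to 3 markers of a cell type in list order, and the 2 nearest profiles of a member, of which only some are printed. Alb, Nos3, Thbd and the genes named among the KLF family and early response lists lie outside that rule. A gene that the rule names is not reported here.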

Additional observations from a re-analysis of the deposited data

How the results depend on the processing

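No member passed the adjusted test in any of the 16 other fits. The count of genes passing over the table, 0 in edgeR, was 119 in DESeq2 (83 lower, 36 higher), 5 with a replicate block, and 0 to 2 when single libraries were left out (2 when control replicate 2 or 3 was dropped). The replicate numbers are not known to pair the mice: the deviations of same-numbered libraries from their group means correlated at 0.11, -0.0068 and 0.13, and knockout replicate 1 correlated best with control replicate 2. With library totals alone, log2(TPM + 1) and log2(TPM + 0.1), Erg turned to -0.0015, -0.11 and -0.12 and Sox18 to -0.062, -0.016 and -0.0064. Over all genes the median was -0.21, -0.20 and -0.23 in those fits. With single libraries left out, Fli1 ran from -0.15 to 0.047 and Maf from -0.19 to 0.034. For the ratio to pan-endothelial markers, a sum of sinusoidal markers turned Sox7 to -0.041 and Sox18 to -0.068, and counts in place of TPM, chosen after seeing the data, turned Erg to 0.015. With single libraries left out that ratio ran from -0.063 to 0.11 for Sox7, from -0.93 to 0.0029 for Sox17 and from -0.22 to 0.33 for Sox18. The cause of these turns was not tested. Depth limits Sox17 most, at 14 to 57 counts a library.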
